A study of Homo sapiens with 12 samples.

Results

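The hnRNP and SR splicing regulators were followed in TIGK cells, which are keratinocytes of the human gingiva that carry hTERT and grow as an established line. Members were the protein-coding entries of the count table whose symbol begins with HNRNP or has the form SRSF plus a number, together with PTBP1, PTBP2, PTBP3, TRA2A, TRA2B, SRRM1, SRRM2, the CLK1 to CLK4 kinases, and the SRPK1 and SRPK2 kinases. This gave 52 members among 58735 genes, of which 19951 are protein coding. They comprised 27 hnRNP genes, 3 PTB protein genes, 12 SR protein genes, 2 TRA2 genes, 2 SRRM genes, and 6 kinase genes. All cells of the 4 groups grew in DMEM-SILAC Flex medium with growth supplements at 48 mM glucose. The control groups received no L-Arginine (Arg), and the treated groups received 500 μM Arg. Poly(A) RNA was sequenced after 24 or 48 h, with 3 libraries (A, B, and C) in each group. All libraries came from 1 cell line, and no source used here says that the 3 libraries of a group were separate experiments, so the p-values measure the spread between these libraries, which may be technical.

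Before an mRNA leaves the nucleus, the spliceosome removes its introns, and RNA-binding proteins decide which exons are kept. SR proteins carry repeats of serine and arginine and usually promote the use of exons that hold their binding sites, whereas hnRNP proteins package new transcripts and often act in the opposite direction. The CLK and SRPK kinases phosphorylate the SR repeats and thereby control where SR proteins sit and when they act. Many of these genes also tune their own level by splicing in a poison exon, which sends the transcript to decay. A gene count adds all transcripts of a gene together, so the productive and the unproductive forms were not separated here.

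The 12 libraries held 16542243 to 19040964 counts. Keratinocyte markers such as KRT5 and KRT14 were abundant in every library, with all 12 markers detected and a summed level between 43874 and 56278 CPM (counts scaled to the library's total), and the summed levels of leukocyte, endothelial, and melanocyte markers stayed at or below 6.41 CPM. The members' share of all counts was 1.51 to 1.60% in the 24 h control, 1.69 to 1.84% in the 24 h Arg group, 1.53 to 1.58% in the 48 h control, and 1.61 to 1.68% in the 48 h Arg group. The Arg and control libraries did not overlap in this share at either time. Mitochondrially encoded genes took 1.20 to 1.30% of the counts in the 24 h control libraries and 0.624 to 0.802% in the 24 h Arg libraries. In the 48 h control they took 1.55% in library B, against 0.906 and 0.707% in libraries A and C, and library B also differed most from the other libraries of its group across all genes.

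Of the 52 members, 48 had at least 1 count and 47 had enough counts to be tested. HNRNPCL1, HNRNPCL2, HNRNPCL3, and HNRNPCL4 had 0 counts in every library, and the read-through gene HNRNPUL2-BSCL2 had 2 counts in all. Levels between members were compared per kb of exonic length, in CPM per kb. In the 24 h control, HNRNPA1, one of the main proteins that coat nascent transcripts, was highest at 355 ± 24.7 CPM per kb (SD, n = 3), and its libraries lay above those of every other member. HNRNPAB at 274 ± 41.7 and HNRNPK, a poly(C)-binding member, at 227 ± 12.9 CPM per kb followed, and these 2 overlapped. SRSF3 was the highest SR protein gene at 87.9 ± 2.95 CPM per kb, and SRSF5 stood at 17.2 ± 0.648 CPM per kb, which overlapped its neighbors SRSF11 and SRSF10. PTBP2 at 2.29 ± 0.227, CLK3 at 1.44 ± 0.168, CLK4 at 1.24 ± 0.0718, and SRSF12 at 0.406 ± 0.0733 CPM per kb closed the order. The related PTBP1, the form that most non-neuronal cells use, stood at 112 ± 6.14 CPM per kb.

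The first comparison asked how these genes respond to Arg at 24 h. Many of them rose together: 9 of the 47 tested members (19.1%) were upregulated at an adjusted p under 0.05, where 2.79% of all 14279 tested genes were, and 0 were downregulated, where 3.84% of all genes were. These 9 were PTBP2, HNRNPH1, SRSF5, SRRM1, HNRNPH2, HNRNPA2B1, TRA2B, HNRNPU, and HNRNPM. The log2 fold change, given below with its standard error (SE), was above 0 for 40 of the 47 members and for 50.5% of all genes, and its median was 0.17 over the members and 0.0030 over all genes. At an unadjusted p under 0.05, 20 members were higher (10.8% of all genes) and 1, CLK4, was lower (11.9% of all genes). DESeq2 called 12 members higher (3.50% of all genes) and 0 lower (4.56% of all genes). All 3 Arg libraries lay above all 3 control libraries for 20 members, as for 12.9% of all genes, and below them for 3 members (CLK4, SRPK2, and SRSF12), as for 13.4% of all genes.

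**Figure D1:**
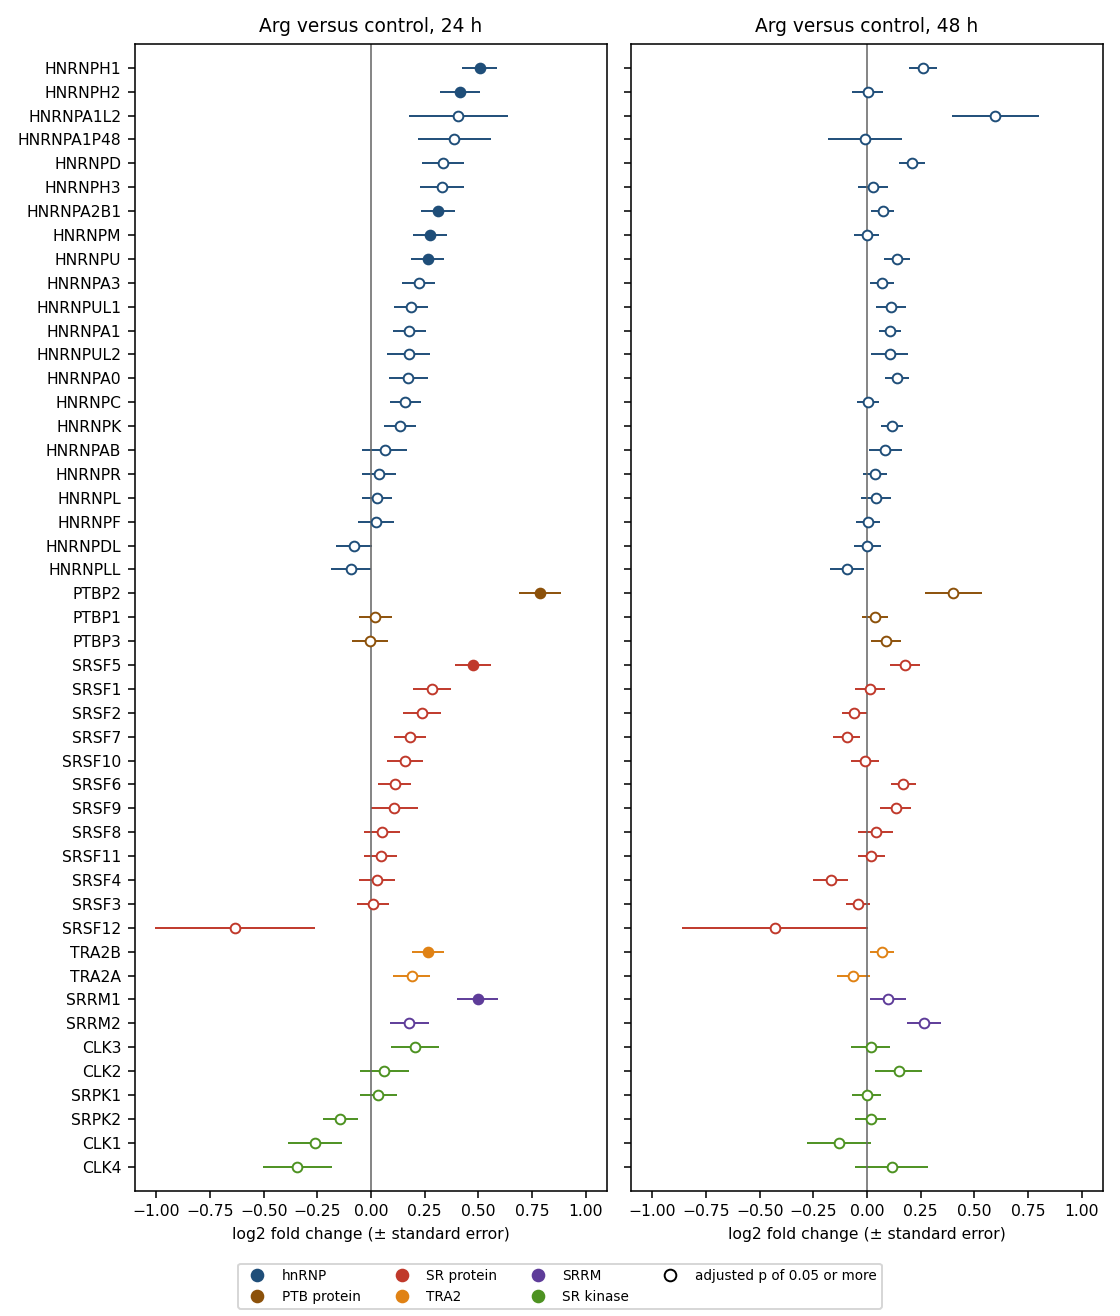
Log2 fold change of each of the 47 tested members with Arg at 24 h (left) and 48 h (right), with its standard error, ordered by role and by the 24 h value. Filled points passed an adjusted p of 0.05. At 24 h, 40 of 47 points lie above 0 and 9 are filled, and at 48 h, 35 lie above 0 and 0 are filled.

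Among the hnRNP genes, 20 of 22 tested were above 0 at 24 h, 5 were upregulated, and the median log2 fold change was 0.18. HNRNPH1, which binds runs of guanines in exons and introns, had 303, 290, and 304 CPM in the control libraries and 379, 446, and 450 CPM in the Arg libraries. Even the lowest Arg library stood clear of the controls, and the log2 fold change was 0.51 (SE 0.081, adjusted p = 0.0011). HNRNPH2, its close X-linked relative, had 49.0, 49.6, and 52.6 CPM without Arg and 61.0, 68.1, and 72.3 CPM with Arg. The log2 fold change of HNRNPH2 was 0.41 (SE 0.092, adjusted p = 0.012), with no overlap.

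HNRNPA2B1, which coats nascent transcripts together with HNRNPA1, had 1284, 1137, and 1221 CPM in the control and 1373, 1615, and 1538 CPM with Arg. Its groups did not overlap, although Arg library A lay close to control library A, and the log2 fold change was 0.31 (SE 0.080, adjusted p = 0.026). HNRNPM, a regulator of alternative exons in epithelial cells, had 597, 541, and 534 CPM in the control and 621, 719, and 683 CPM with Arg. Its log2 fold change was 0.27 (SE 0.079, adjusted p = 0.047), without overlap. HNRNPU, which binds both RNA and chromatin scaffolds, had 854, 788, and 820 CPM in the control and 938, 1066, and 951 CPM with Arg. Again the groups stayed apart, with a log2 fold change of 0.26 (SE 0.076, adjusted p = 0.047).

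The close relatives of these genes gave a mixed picture. HNRNPD, which binds AU-rich elements of unstable mRNAs, had an adjusted p of 0.051 with a log2 fold change of 0.33, and HNRNPH3 had 0.062 with 0.33. HNRNPF, the other guanine-run binder, had a log2 fold change of 0.022 (SE 0.083, adjusted p = 0.91). The abundant HNRNPA1 had 0.18 (SE 0.076, adjusted p = 0.17). The near-copies HNRNPA1L2 and HNRNPA1P48, at 3.25 to 14.0 CPM in the libraries of this time, can share reads with HNRNPA1 and are uncertain. The lowest hnRNP value was that of HNRNPLL, −0.094 (SE 0.092, adjusted p = 0.59).

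The 3 PTB proteins, which bind pyrimidine tracts and mostly repress exons, moved unequally. PTBP2, best known from neurons, had 26.3, 32.0, and 30.6 CPM in the control and 53.8, 49.9, and 49.8 CPM with Arg. All 3 Arg libraries were far above the control, and its log2 fold change of 0.79 (SE 0.10, adjusted p = 0.00012) was the largest among the members. PTBP1 had a log2 fold change of 0.020 (SE 0.078, adjusted p = 0.91) and PTBP3 of −0.0053 (SE 0.085, adjusted p = 0.98). PTBP2 is encoded on chromosome 1 (GRCh38, 96721665 to 96823738, plus strand), where no other gene of the table overlaps it.

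Of the 12 SR protein genes, 11 were above 0 at 24 h and 1 was upregulated, with a median of 0.11. That gene was SRSF5, on chromosome 14 (69726900 to 69772005, plus strand), with 88.4, 95.2, and 92.9 CPM in the control and 125, 139, and 120 CPM with Arg. Each Arg library exceeded each control library, and the log2 fold change was 0.47 (SE 0.084, adjusted p = 0.0026). SRSF6, another classical SR protein, had 326, 299, and 310 CPM in the control and 355, 339, and 317 CPM with Arg. The groups of SRSF6 overlapped, with a log2 fold change of 0.11 (SE 0.076, adjusted p = 0.41). SRSF1 had 0.28 (adjusted p = 0.066) and SRSF2 had 0.24 (adjusted p = 0.11), and both were higher in all 3 Arg libraries. SRSF12 alone was below 0, at −0.63 (SE 0.37, adjusted p = 0.33), with only 268 counts in all 12 libraries.

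SRRM1, a splicing coactivator with long SR repeats, had 100, 114, and 121 CPM in the control and 145, 179, and 150 CPM with Arg. Its groups did not overlap, and the log2 fold change was 0.50 (SE 0.096, adjusted p = 0.0046). SRRM2, a scaffold of nuclear speckles, had 0.18 (SE 0.092, adjusted p = 0.26). TRA2B, an SR-like protein that binds GAA-rich exons, had 274, 262, and 287 CPM in the control and 344, 324, and 322 CPM with Arg. TRA2B thus stayed apart from the control in all libraries, with a log2 fold change of 0.27 (SE 0.075, adjusted p = 0.041), and TRA2A had 0.19 (SE 0.088, adjusted p = 0.21).

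The 6 kinase genes had a median of −0.055, with 3 above 0 and 0 called by edgeR or DESeq2, and 1 had an unadjusted p under 0.05. CLK4, a nuclear kinase of SR proteins, had 9.21, 10.3, and 10.1 CPM in the control and 7.53, 7.51, and 8.28 CPM with Arg. Its Arg libraries were all below the control, with a log2 fold change of −0.34 (SE 0.16, adjusted p = 0.21). SRPK1, a cytoplasmic kinase of SR proteins, had 0.034 (SE 0.086, adjusted p = 0.86).

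**Figure D2:**
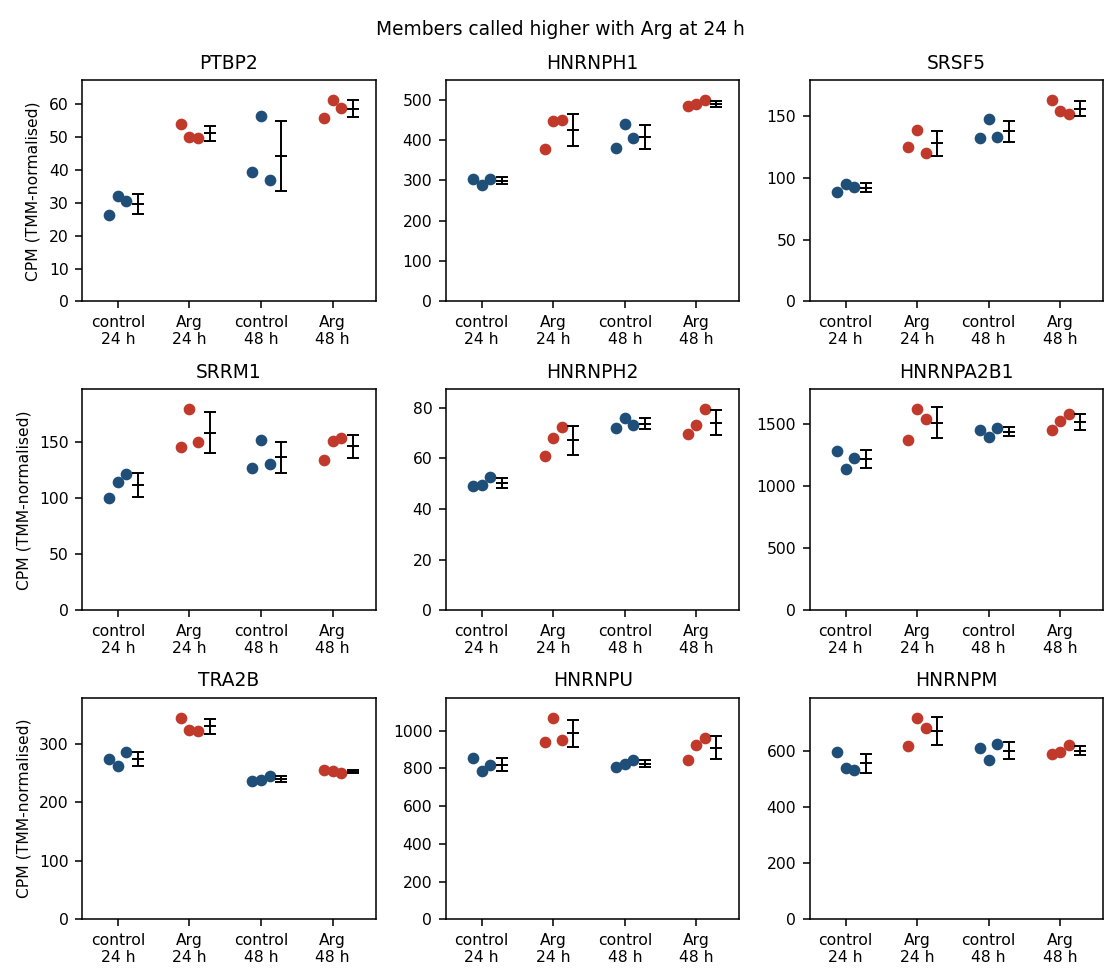
Level in CPM (TMM-normalized) of the 9 members upregulated at 24 h, with 1 point per library in the order A, B, C (blue, control; red, Arg) and the mean with its SD (n = 3) in black. At 24 h the red points lie above the blue points for all 9 genes, and at 48 h the groups overlap for all but HNRNPH1, SRSF5, and TRA2B.

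The calls at 24 h did not all rest equally on the 6 libraries. PTBP2, HNRNPH1, SRSF5, and SRRM1 passed in each of the 6 fits that left out 1 library, HNRNPH2 and HNRNPA2B1 passed in 3, HNRNPU and HNRNPM in 1, and TRA2B in 0. The share of all genes that was upregulated moved in the same fits. The count of 9 became 5 without control library A (0.859% of all genes) or C (1.03%), 4 without Arg library B (1.02%) or C (0.928%), and 11 without Arg library A (3.29%). Without control library B it fell to 6 while the share of all genes rose to 4.42%. With all libraries kept, PTBP2, HNRNPH1, SRSF5, SRRM1, HNRNPH2, and HNRNPA2B1 passed under each of the 10 other settings, whereas TRA2B and HNRNPU were lost under the length correction and the replicate block, and HNRNPM under the replicate block. Arg library A was the lowest of its group for 18 of 22 hnRNP genes and the highest for 8 of 12 SR protein genes. The share of mitochondrially encoded counts moved with the Arg groups at 24 h, and when those genes were left out 10 members were upregulated (2.76% of all genes).

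Summed over each role, the 27 hnRNP genes reached 11784, 10534, and 11414 CPM in the 24 h control and 12034, 13564, and 13017 CPM with Arg, a rise of the mean by 14.5%. The SR protein genes reached 2307, 2184, and 2317 CPM in the control and 2627, 2434, and 2386 CPM with Arg, which is 9.39% higher. For TRA2 the rise was 19.0%, without overlap as well. The SRRM sum was 18.0% higher and the PTB sum 3.04% higher, and the libraries of both overlapped. The kinase genes differed by −1.68% and overlapped.

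**Figure D3:**
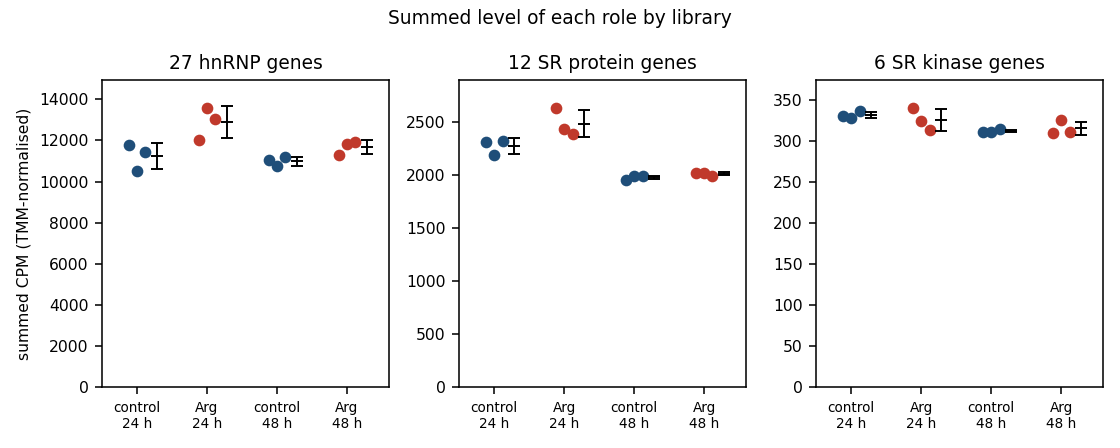
Summed level in CPM (TMM-normalized) of the hnRNP, SR protein, and SR kinase genes, with 1 point per library in the order A, B, C (blue, control; red, Arg) and the mean with its SD (n = 3) in black. The hnRNP and SR protein sums of the Arg libraries lie above those of the controls at both times, and the SR protein sums at 48 h lie below all those at 24 h.

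The region around the transcription start was examined in the RefSeq promoter table (GRCh38.p14), which holds 250 bases before and 50 bases after a gene's start. It held 47 of the 52 members and all 9 upregulated ones. Of 6 short motifs searched on both strands, the core of the cAMP response element (TGACGT, which binds CREB and ATF proteins) differed most in share between the upregulated and the other members, and it was chosen for display after the shares were seen. It was present in 8.3% of all 27305 promoters, in 4 of the 9 upregulated members (44.4%), and in 4 of the 34 that were tested and not called (11.8%). The 4 promoters are shown here 5′ to 3′ on the gene's strand, with the match in capitals and shorter stretches where the match lies in an annotated exon.
TRA2B (chr3:185938104-185938188, minus strand): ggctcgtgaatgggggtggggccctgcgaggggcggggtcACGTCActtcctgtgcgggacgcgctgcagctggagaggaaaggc
HNRNPH2 (chrX:101408160-101408221, plus strand): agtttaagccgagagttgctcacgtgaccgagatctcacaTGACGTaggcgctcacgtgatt
HNRNPA2B1 (chr7:26200797-26200826, minus strand): tacgcgacggccTGACGTagcggaagacgc
SRSF5 (chr14:69767080-69767109, plus strand): cgtccccggaagTGACGTaggacgcgccct

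The matches began 134 bases before the RefSeq start in TRA2B (as the reverse complement), 22 in HNRNPH2, 68 in HNRNPA2B1, and 50 in SRSF5. HNRNPH2 held a further match at 222 bases. The stretches of HNRNPA2B1 (gene at 26173057 to 26201529) and SRSF5 lie within the counted gene, whose outer end differs from the RefSeq start. The other upregulated members, PTBP2, HNRNPH1, SRRM1, HNRNPU, and HNRNPM, held no match in this window. The GC box GGGCGG was in 55.6% of the upregulated, 73.5% of the other tested, and 44.6% of all promoters. For the CCAAT box CCAAT these shares were 44.4, 41.2, and 35.7%, and for the E-box CACGTG they were 22.2, 20.6, and 7.4%. The core GCGTG, which is part of the element bound by the aryl hydrocarbon receptor and can overlap an E-box, was in 66.7, 67.6, and 36.3%. The ATF4-C/EBP element TGATGNAA was in 0 of the members' promoters and in 3.7% of all. A match is a sequence description, and binding was not measured.

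At 48 h, fewer members were called and their median log2 fold change was smaller than at 24 h. The difference between the times, tested below as an interaction, passed adjustment for 0 members. edgeR called 0 of the 47 tested members in either direction, where 0% of all 14562 tested genes were upregulated and 0.117% downregulated, and DESeq2 called 1, HNRNPH1, where it called 0.286% of all genes higher and 1.03% lower. At an unadjusted p under 0.05, 10 members were higher (5.94% of all genes) and 0 lower (7.49% of all genes). These 10 were HNRNPH1, HNRNPD, SRRM2, PTBP2, HNRNPA1L2, SRSF6, SRSF5, HNRNPA0, HNRNPU, and HNRNPK. The log2 fold change was above 0 for 35 members (50.3% of all genes), with a median of 0.040 over the members and 0.0018 over all genes. The groups did not overlap for 11 members that were higher (8.56% of all genes) and 3 that were lower (8.51% of all genes). These 3, SRSF2, SRSF3, and SRSF7, differed by −0.058, −0.042, and −0.095, with adjusted p-values of 0.69, 0.77, and 0.54.

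HNRNPH1 had 379, 440, and 404 CPM in the 48 h control and 483, 489, and 498 CPM with Arg. All Arg libraries exceeded all controls, with a log2 fold change of 0.26 (SE 0.065, adjusted p = 0.15). SRSF5 had 132, 148, and 134 CPM in the control and 163, 154, and 152 CPM with Arg, without overlap. Its log2 fold change was 0.18 (SE 0.069, adjusted p = 0.30). SRSF6 had 292, 300, and 280 CPM in the control and 328, 330, and 323 CPM with Arg. The groups of SRSF6 stood apart at this time, with a log2 fold change of 0.17 (SE 0.058, adjusted p = 0.24).

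PTBP2 had 39.4, 56.4, and 36.8 CPM in the 48 h control and 55.9, 61.1, and 58.6 CPM with Arg. Control library B lay within the Arg range, and the log2 fold change was 0.40 (SE 0.13, adjusted p = 0.23). SRRM2 had 566, 575, and 583 CPM in the control and 630, 650, and 797 CPM with Arg, without overlap. Its log2 fold change was 0.27 (SE 0.080, adjusted p = 0.20). HNRNPA1L2, uncertain as a near-copy of HNRNPA1, had the largest hnRNP value, 0.60 (SE 0.20, adjusted p = 0.24). In the other roles the largest values were 0.070 for TRA2B (SE 0.057, adjusted p = 0.63), 0.15 for CLK2 (SE 0.11, adjusted p = 0.59), and −0.43 for SRSF12 (SE 0.43, adjusted p = 0.70).

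The result at 48 h depended on control library B. Without it, 6 members were upregulated (HNRNPD, HNRNPH1, PTBP2, SRRM2, SRSF5, and SRSF6) and 1, SRSF4, was downregulated, where 7.76% of all genes were upregulated and 8.17% downregulated. PTBP2 then had a log2 fold change of 0.62 (adjusted p = 1.05e-05), SRSF5 of 0.23 (adjusted p = 0.011), and SRSF6 of 0.19 (adjusted p = 0.017). Leaving out any other library at this time gave 0 calls. The members' share that was upregulated without library B, 6 of 47, stands beside a background that rose as well.

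The Arg comparisons at the 2 times share no library. Of the 47 members, 31 were above 0 at both times, 3 were below 0 at both (CLK1, HNRNPLL, and SRSF12), 9 were above 0 at 24 h and below 0 at 48 h, and 4 the reverse. Unadjusted p-values under 0.05 at both times were found for HNRNPD, HNRNPH1, HNRNPU, PTBP2, and SRSF5, all higher. For these counts across both times, the share over all genes was not computed. All 9 members upregulated at 24 h had a smaller value at 48 h. These 9 were picked by their high values at 24 h, which by itself favors a smaller value at 48 h. Of all 47 members, 31 had a smaller value at 48 h. The difference itself, tested as the interaction of Arg and time, passed adjustment for 0 members, as for 0.0132% of all 15148 tested genes in the upward and 0% in the downward direction. At an unadjusted p under 0.05 the effect at 48 h was smaller for 13 members (3.8% of all genes) and larger for 0 (3.06%). DESeq2 called 0 members, where it called 0.0813% of all genes in the upward and 0.110% in the downward direction. Over all members the interaction was above 0 for 16 of 47 (48.9% of all genes). HNRNPH2 had the largest drop, with an interaction of −0.41 (SE 0.12, adjusted p = 0.42), followed by SRRM1 with −0.40 (SE 0.14, adjusted p = 0.61).

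The levels also moved with time in culture. In the control, 5 members were higher at 48 h than at 24 h (9.9% of all 14449 tested genes) and 10 were lower (10% of all genes). With Arg, 3 were higher (14.3% of all 14398 tested genes) and 18 were lower (14% of all genes). The same 10 genes that fell in the control also fell with Arg, in libraries not shared between these comparisons: HNRNPA0, HNRNPAB, HNRNPL, PTBP1, SRPK1, SRSF1, SRSF2, SRSF3, SRSF7, and SRSF8. They made up all 10 lower members of the control and 10 of the 18 with Arg (55.6%). Of all 14057 genes tested in both, 7.31% were lower in both, which is 72.0% of those lower in the control and 51.3% of those lower with Arg. HNRNPH1 and SRSF5 rose in both, as did 7.23% of all genes. At an unadjusted p under 0.05, 6 members were higher (17.1% of all genes) and 13 lower (17%) in the control, and 4 were higher (19.3%) and 23 lower (19.2%) with Arg. The earlier and later libraries did not overlap for 8 members that were higher (19.2%) and 15 that were lower (19.7%) in the control, and for 5 (21.1%) and 21 (21.2%) with Arg. The log2 fold change was above 0 for 16 members in the control (51.5% of all genes) and for 14 with Arg (50.1% of all genes). Scaled by library size alone, the split was 6 higher and 6 lower in the control (12.8 and 6.98% of all genes) and 4 and 15 with Arg (17.8 and 10.1% of all genes).

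Of the 12 SR protein genes, 5 fell and 1 rose in the control, and 8 fell and 1 rose with Arg. In both settings 11 of the 12 were below 0, with medians of −0.26 and −0.35, beside medians of 0.012 and 0.00092 over all genes. Both TRA2 genes fell with Arg as well, with a median of −0.34. The summed level of the SR protein genes was 13.0% lower at 48 h in the control and 19.1% lower with Arg. That of the PTB genes was 12.7 and 10.9% lower and that of the TRA2 genes 10.3 and 22.4% lower, and the differences between roles were not tested. SRSF7, which also serves as an adapter for mRNA export, had 222, 207, and 227 CPM in the 24 h control and 178, 174, and 187 CPM in the 48 h control. With Arg it had 258, 243, and 243 CPM at 24 h and 172, 162, and 170 CPM at 48 h. All later libraries were below all earlier ones in both, with log2 fold changes of −0.28 (SE 0.071, adjusted p = 0.018) and −0.56 (SE 0.066, adjusted p = 4.1e-06).

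SRSF3, the smallest classical SR protein, had 631, 603, and 644 CPM in the 24 h control and 485, 497, and 500 CPM in the 48 h control. With Arg it had 681, 599, and 611 CPM at 24 h and 481, 478, and 482 CPM at 48 h. SRSF3 fell without overlap in both settings, by 0.34 (SE 0.064, adjusted p = 0.0055) and by 0.39 (SE 0.065, adjusted p = 0.00015) on the log2 scale. The same direction was seen in several other SR protein genes. SRSF1, the founding member of the family, fell by 0.28 in the control (SE 0.077, adjusted p = 0.028) and by 0.54 with Arg (SE 0.080, adjusted p = 4.7e-05). SRSF2 fell by 0.24 (SE 0.070, adjusted p = 0.031) and by 0.54 (SE 0.076, adjusted p = 2.8e-05). SRSF8 fell by 0.35 (SE 0.085, adjusted p = 0.015) and by 0.36 (SE 0.078, adjusted p = 0.0016). SRSF10 fell with Arg by 0.33 (SE 0.074, adjusted p = 0.0022) and had −0.16 in the control (adjusted p = 0.16). SRSF6 passed in neither, with −0.10 in the control (adjusted p = 0.34) and −0.042 with Arg (adjusted p = 0.67).

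SRSF5 took the opposite course to its family. It went from 88.4 to 95.2 CPM in the 24 h control to 132 to 148 CPM in the 48 h control, a log2 fold change of 0.58 (SE 0.078, adjusted p = 0.0016). With Arg it went from 120 to 139 CPM to 152 to 163 CPM, a log2 fold change of 0.29 (SE 0.074, adjusted p = 0.0063). HNRNPH1 rose by 0.45 (SE 0.074, adjusted p = 0.0032) and by 0.21 (SE 0.070, adjusted p = 0.034). HNRNPH2 rose in the control from 49.0 to 52.6 CPM to 72.0 to 76.1 CPM, by 0.55 (SE 0.079, adjusted p = 0.0020), and with Arg its change was 0.14 (SE 0.084, adjusted p = 0.22). PTBP2 rose in the control by 0.58 (SE 0.15, adjusted p = 0.020) and had 0.20 with Arg (SE 0.080, adjusted p = 0.077). Its rise in the control was 0.37 without 48 h control library B (adjusted p = 0.034) and was not called without 24 h control library A or C (adjusted p = 0.11 and 0.073). HNRNPA2B1 rose in the control by 0.25 (SE 0.067, adjusted p = 0.025) and had 0.0058 with Arg (SE 0.066, adjusted p = 0.96). The HNRNPA2B1 call was lost under the length correction (0.18, adjusted p = 0.11) and passed in 2 of the 6 fits without 1 library.

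**Figure D4:**
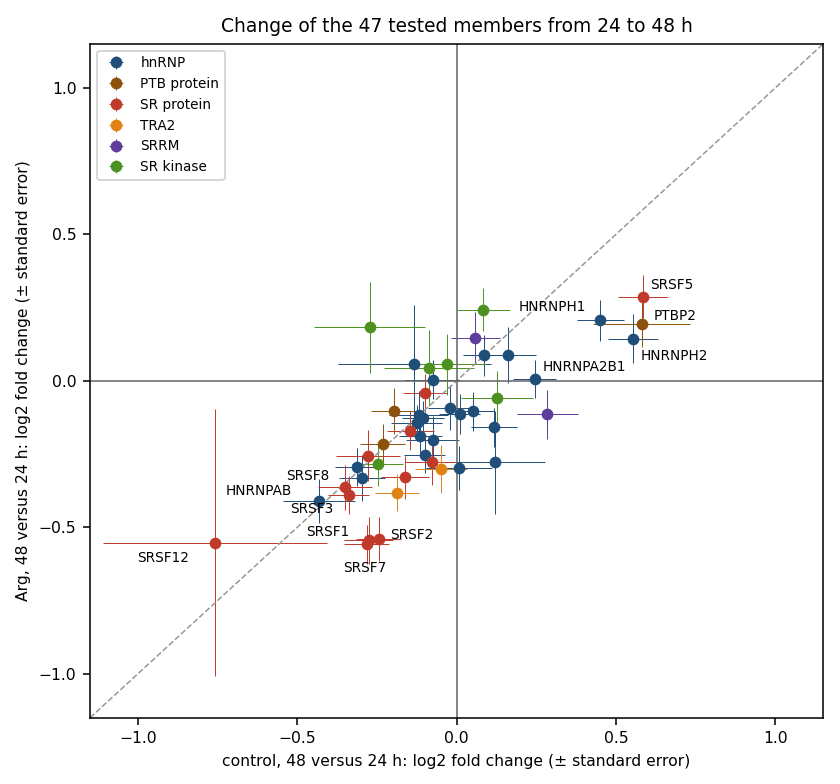
Log2 fold change from 24 to 48 h of the 47 tested members, in the control (horizontal axis) and with Arg (vertical axis), with standard errors and a dashed line of equal change. The 2 axes share no library. SRSF5, HNRNPH1, HNRNPH2, and PTBP2 lie at the right, and 11 of the 12 SR protein genes (red) lie below 0 on both axes.

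The time comparisons share the 24 h control libraries or the 24 h Arg libraries with the Arg comparison at 24 h. Side by side, HNRNPH2 differed by 0.41 with Arg at 24 h, by 0.55 over time in the control, and by 0.0039 with Arg at 48 h (SE 0.072, adjusted p = 0.99). At 48 h its control libraries had 72.0, 76.1, and 73.2 CPM and its Arg libraries 69.8, 73.3, and 79.4 CPM. Both 48 h groups of HNRNPH2 thus lay near or above the upper end of the 24 h Arg range of 61.0 to 72.3 CPM.

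Among the hnRNP genes, HNRNPAB, HNRNPL, and HNRNPA0 fell in both settings. HNRNPAB had 647, 485, and 630 CPM in the 24 h control and 464, 378, and 462 CPM in the 48 h control, a fall by 0.43 (SE 0.11, adjusted p = 0.020), and it fell with Arg by 0.41 (SE 0.076, adjusted p = 0.00043). HNRNPL, which binds CA repeats, fell by 0.31 (SE 0.071, adjusted p = 0.011) and by 0.30 (SE 0.064, adjusted p = 0.0019). HNRNPA0 fell by 0.30 (SE 0.073, adjusted p = 0.016) and by 0.33 (SE 0.079, adjusted p = 0.0035). With Arg, HNRNPC, a tetramer-forming core member, fell by 0.25 (SE 0.059, adjusted p = 0.0031) and HNRNPH3 by 0.30 (SE 0.075, adjusted p = 0.0055). TRA2B fell with Arg by 0.38 (SE 0.063, adjusted p = 0.00015), from 322 to 344 CPM to 250 to 255 CPM, and had −0.19 in the control (SE 0.069, adjusted p = 0.076).

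Of the kinase genes, SRPK1 fell in the control by 0.25 (SE 0.080, adjusted p = 0.047) and with Arg by 0.28 (SE 0.075, adjusted p = 0.0076). SRPK2 rose with Arg by 0.24 (SE 0.073, adjusted p = 0.018). PTBP1 fell by 0.23 (SE 0.071, adjusted p = 0.039) and by 0.21 (SE 0.067, adjusted p = 0.021). The count of 10 lower members in the control became 1 without 24 h control library A or C, 4 without 48 h control library A, and 5 without 48 h control library C. The share of all genes that was lower also dropped in these fits, to 2.74, 3.36, 6.22, and 7.67%. In each of the 6 control fits that left out 1 library, SRSF3 was lower and SRSF5, HNRNPH1, and HNRNPH2 were higher. HNRNPAB and HNRNPL passed in 4 of them, HNRNPA0, SRSF7, and SRSF8 in 3, SRSF1 and SRSF2 in 2, and PTBP1 and SRPK1 in 1. With Arg, the rise of HNRNPH1 passed in 2 of 6 such fits, that of SRPK2 in 3, and the fall of PTBP1 in 3, of TRA2A in 4, and of SRPK1 in 5. The other members named above as falling or rising with Arg passed in all 6. Among the falls with Arg not named above, SRSF4 passed in 4 of these fits, and HNRNPA1 and SRSF9 passed in 1 each. SRSF9 also passed under only 5 of the 10 other settings. Fibroblast markers, at 34.2 to 54.4 CPM in sum in the 24 h control, reached 85.4 to 103 CPM in the 48 h control. Of their 4 tested genes 2 rose, DCN and COL1A1, which made up most of the sum in every library. The same 2 rose with Arg. The tested LUM and PDGFRB stayed at or below 2.35 CPM in every library and were called over time in neither setting. The untested COL1A2, COL3A1, and PDGFRA stayed at or below 0.27 CPM. The part of the fibroblast markers in the change of the members was not tested.

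The other genes of the splicing machinery were counted in the lists given in the methods. At 24 h, 30 of 38 core spliceosome genes were above 0 and 3 were upregulated, with a median of 0.082. These 3 were PRPF6, a bridge within the tri-snRNP (0.36, adjusted p = 0.0068), the helicase SNRNP200 (0.29, adjusted p = 0.031), and the helicase DHX38 (0.32, adjusted p = 0.036). Of 23 genes of RS-domain and nuclear speckle proteins, 18 were above 0 and 2 were upregulated, THRAP3 (0.38, adjusted p = 0.0077) and PNN (0.32, adjusted p = 0.048), with a median of 0.093. Of 40 other splicing regulators tested, 25 were above 0, with a median of 0.071. The epithelial regulator ESRP2 was upregulated (0.44, standard error 0.087, adjusted p = 0.0053), and LUC7L, which acts with the U1 snRNP, was downregulated (−0.83, standard error 0.11, adjusted p = 0.00012). Of 14 kinases, phosphatases, and importers of SR proteins outside the members, 10 were above 0 and 0 were called, and 1 was higher and 2 were lower at an unadjusted p under 0.05. At 48 h, 0 genes of these lists were called by edgeR, and at an unadjusted p under 0.05 the core spliceosome had 3 higher and 3 lower, the other regulators 6 and 1, the RS-domain and speckle genes 2 and 0, and the kinases and importers 4 and 2. Over time with Arg, 14 core spliceosome genes fell and 0 rose, and in the control 5 fell and 4 rose, beside the 14% lower and 14.3% higher of all genes with Arg and the 10 and 9.9% in the control. The other regulators fell in 8 cases in both settings, with 2 rising with Arg and 1 in the control. Of the 23 RS-domain and speckle genes, 3 rose and 1 fell with Arg, and 5 rose and 0 fell in the control. Of the kinases and importers, 3 fell and 0 rose with Arg, and 4 fell and 1 rose in the control.

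The 18 proliferation markers were counted beside the members, and no test compared the 2 sets. At 24 h, 16 of 18 were above 0 and 7 were upregulated, with a median of 0.23, and their summed level was 3739 to 4078 CPM in the control and 4604 to 4706 CPM with Arg. MKI67 rose by 0.53 (SE 0.12, adjusted p = 0.011). At 48 h, 8 of 18 were above 0 and 0 were called, with a median of −0.00099, and their sums of 3800 to 3979 CPM in the control and 3747 to 4149 CPM with Arg overlapped. Over time with Arg, 12 fell and 1 rose, and in the control 5 fell and 4 rose. In the control, 10 of the 18 markers were above 0 over time, where 16 of the 47 members were, and 5 members rose and 10 fell. With Arg at 48 h, 35 of the 47 members were above 0. The keratinocyte markers had 0 calls among 12 at 24 h, with 3 higher and 2 lower at an unadjusted p under 0.05, and the fibroblast gene DCN fell by 0.70 at 24 h (SE 0.18, adjusted p = 0.029). Whether the change of the proliferation markers has a part in that of the members was not tested. In bulk samples, more cells of a kind and more RNA per cell cannot be told apart.

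The counting of some members has limits. HNRNPA2B1 overlaps CBX3 on the opposite strand (71803 counts, against 308136 for HNRNPA2B1). Opposite-strand overlaps were also present for SRRM2 with ELOB (58750 against 132538) and SRPK2 with KMT2E (7229 against 21270). The same holds for SRSF9 with GATC (9164 against 29788) and CLK3 with EDC3 (14449 against 6973). The strand setting of the counting is not given in the sources used here, so reads from an overlap could not be assigned by strand. SRSF5, PTBP2, SRRM1, and TRA2B overlap no other gene of the table. The 74 pseudogenes of HNRNPA1 held 2767 counts together, 0.697% of the 396927 counts of HNRNPA1. The 9 members upregulated at 24 h had a median exonic length of 9267 bases, and the 38 tested and not called had 5700 bases. With the trend on length removed, 8 members were upregulated at 24 h (3.14% of all genes), of which 7 were among the 9. TRA2B (adjusted p = 0.071) and HNRNPU (adjusted p = 0.058) were lost, and SRSF1 was added.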

How the data were processed

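Sequencing reads of 12 libraries (4 groups of 3) were processed by the authors with fastp, STAR, and featureCounts on GRCh38/hg38. The deposited table holds raw counts per gene, not normalized by the authors, with coordinates and exonic lengths. Versions, annotation release, and strand setting are not given in the sources used here. All sample columns were used, and the 0 unused columns needed no mapping. Depth is given as total counts per library, and the precision rests on the spread between 3 libraries.

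Groups came from the labels. Each comparison used edgeR 4.0.16 in R 4.3.3 (TMM, filterByExpr, quasi-likelihood test), with Benjamini-Hochberg adjustment over all tested genes and a threshold of 0.05. Arg was compared with control at each time, 48 h with 24 h within each treatment, and the interaction was fitted on all 12 libraries. Log2 fold changes are those of the fitted edgeR model with its default prior count, and standard errors are the absolute log2 fold change over the root of F. A prior count of 2 was used only for log2 CPM, in the comparison of single libraries and in the length correction. An exact permutation test of 3 against 3 libraries cannot go below 0.1. Levels are TMM-normalized CPM. The scripts were tested on simulated data.

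Members and lists (core spliceosome, RS-domain and speckle genes, other regulators, SR kinases and importers, proliferation, and cell type markers) were chosen with earlier results of these data known. Full statistics are given for members passing in any test (at most 12 per test), SRSF5, SRSF6, and the largest change of each role at 24 and 48 h. For each list at most 4 genes are named, those with the smallest p at 24 or 48 h. Alternatives were DESeq2 1.42.0, its size factors, library size only, other filters, 1 joint model, no mitochondrial genes, a length correction (lowess, span 0.3), a replicate block, and leaving out each library. Promoters came from RefSeq, with the first entry per symbol, and exons from GENCODE.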

Additional observations from a re-analysis of the deposited data

How the results depend on the processing

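With all libraries kept, the count of members upregulated at 24 h ranged from 7 with the replicate block (2.65% of all genes), which kept 6 of the 9, lost HNRNPM, HNRNPU, and TRA2B, and added HNRNPD, to 13 in 1 model of all 12 libraries (3.09%), which kept all 9, and leaving out 1 library gave 4 to 11. At 48 h the count of 0 higher became 1 under DESeq2, 3 without the filter on low counts (0.730% of all genes), and 1 with the replicate block (0.295%), and leaving out 1 library gave 0 to 6 higher and 0 to 1 lower. Over time in the control, scaling by library size only lowered the count of lower members from 10 to 6 (6.98% of all genes). The replicate block gave 13 (14.4%), the length correction 12 (10.3%), and both together 15 (14.4%). Leaving out 1 library there gave 3 to 5 higher (2.85 to 10.7% of all genes) and 1 to 13 lower (2.74 to 11.6%). Over time with Arg, the length correction with the replicate block lowered the count of higher members from 3 (14.3% of all genes) to 1 (11.1%). Leaving out 1 library gave 1 to 3 higher (10.4 to 12.4% of all genes) and 13 to 21 lower (9.31 to 12.9%). The interaction kept 0 calls in both directions under every alternative run. The replicate letters gave correlations of deviations between −0.061 and 0.13 for matching letters and between −0.11 and 0.098 for other letters. With 3 libraries in each group, these values cannot decide whether the letters pair the libraries.

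Over time with Arg, SRSF6 turned to 0.015 with library size only, and SRRM2 turned to −0.011 under the length correction and to −0.010 with the replicate block added. Of the other log2 fold changes with all libraries kept, 574 kept their sign and their side of the threshold, 14 passed it newly, and 11 no longer passed. A missing adjusted p was counted as unchanged. The cause of these changes was not tested. SRSF12, CLK4, and HNRNPA1L2 are limited by their low counts.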
